A study of Homo sapiens with 6 samples.

Results

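The genes described here are the machinery of chromosome segregation and the kinesin family it draws on: every gene with a named probe set whose symbol is a numbered kinesin (KIF), a centromere protein (CENP) or an Aurora kinase (AURK), together with a fixed set of checkpoint, kinetochore and mitotic kinase genes. The symbols alone chose 70 genes, out of 14884 named on the array. By role these were 12 kinesins of mitosis, 27 other kinesins, 16 centromere proteins, 6 spindle checkpoint genes, 5 mitotic kinases and passenger proteins, 3 genes of cyclin B and its kinase CDK1, and NDC80. The rule for kinesins takes in motors of cargo transport, so most counts are also given without the 27 other kinesins. These 27 are not all cargo motors, since KIF2A, which takes microtubules apart like KIF2C, is among them. CENPB, CENPE, CENPF, CENPJ, CENPS, NUF2, SPC24, SPC25 and TPX2, which the rule also admits, were not analysed here, because no probe set given to this work bears their symbols.

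Transcript levels in RPMI8226, KMS11 and U266 come from the Affymetrix Human Gene 2.0 ST array, which reads whole transcripts with short DNA probes. All 3 are established lines of multiple myeloma, a cancer of antibody-secreting plasma cells. Each line gave 1 array after transfection with 100 nM of a miR-10a mimic (Ambion) and 1 after 100 nM of a scrambled control (Negative Control 1, Ambion), both delivered with HiPerFect and collected at 48 h. The groups are thus 3 mimic arrays and 3 control arrays, all from transfected cells, and the labels name neither an untransfected sample nor separate cultures within a line. P-values therefore rest on the spread left between these 6 arrays once line and treatment are fitted. They do not measure variation between cultures of a line, which limits what every p-value and standard error can show.

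At mitosis, cyclin B switches on CDK1, and Aurora and Polo-like kinases drive the assembly of the spindle. Centromere proteins mark the site on each chromosome where the kinetochore forms, the NDC80 complex attaches it to microtubules, and the spindle checkpoint holds back CDC20 until every chromosome is attached. Kinesins are motor proteins that walk along microtubules or take them apart, and a subset of them builds the spindle, moves chromosomes and completes the division of the cell. Transcripts of most of these mitotic genes are made in the G2 phase and in mitosis and are scarce in resting cells, so in bulk RNA fewer dividing cells and less of a transcript per cell cannot be told apart.

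The miRNA supplied was labelled miR-10a, with no arm named. Its guide strand as RefSeq records it, miR-10a-5p, lies on the minus strand at chr17:48579904-48579926 (GRCh38.p14) and is shown with its seed, bases 2 to 8, in capitals because the seed is the stretch that pairs with targets.
miR-10a-5p: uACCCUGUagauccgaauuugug

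Promoters of this gene group are known for 2 short elements, the cell cycle genes homology region (CHR; searched as TTTGAA and TTCGAA) and the CCAAT box (searched as CCAAT), and some carry E2F sites (searched as TTTCGCG and TTTGGCG). Each was searched on both strands in RefSeq windows of 300 bases, from 250 before to 50 after the annotated start (GRCh38.p14). TTCGAA reads the same on both strands, and no matched words of different elements overlap in the promoters shown. Windows were found for 57 of the 70 genes, 70 windows in all. A CHR core stood in 84.6% of the windows of the mitotic kinesins, in 6.9% of those of the other kinesins and in 16.4% of the 35116 windows of all genes. The share was 33.3% for the centromere proteins (15 windows). With 4 windows each, it was 25% for mitotic kinases and passengers, 75% for cyclin B and CDK1 and 100% for checkpoint genes. Without the other kinesins, 61% of the windows held a CHR core, 73.2% a CCAAT box and 48.8% both, against 16.4%, 34.6% and 6.38% of all windows. An E2F core was found in 14.3% of the members' windows and in 3.19% of all windows. Its share was alike in the other kinesins (13.8%) and in the members without them (14.6%). These matches describe letters and are not evidence of binding. The promoters of KIF20A, CENPU, CCNB1 and NDC80, genes whose levels differed widely between the lines, are shown from 250 bases before to 20 after the start, 5′ to 3′ on the gene's strand, with the matched elements in capitals. They lie at chr5:138178862-138179131 (plus strand), chr4:184734077-184734346 (minus strand), chr5:69166900-69167169 (plus strand) and chr18:2571307-2571576 (plus strand).
KIF20A: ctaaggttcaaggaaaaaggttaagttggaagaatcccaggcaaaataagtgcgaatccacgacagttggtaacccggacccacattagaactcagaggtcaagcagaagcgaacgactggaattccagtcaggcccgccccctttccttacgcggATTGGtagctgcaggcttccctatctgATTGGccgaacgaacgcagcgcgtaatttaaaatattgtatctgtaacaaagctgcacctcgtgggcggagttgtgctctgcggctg
CENPU: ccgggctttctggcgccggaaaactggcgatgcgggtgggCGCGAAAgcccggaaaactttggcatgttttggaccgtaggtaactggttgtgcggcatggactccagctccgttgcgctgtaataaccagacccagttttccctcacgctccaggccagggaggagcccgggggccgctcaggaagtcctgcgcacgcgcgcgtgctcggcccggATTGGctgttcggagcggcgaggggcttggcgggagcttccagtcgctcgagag
CCNB1: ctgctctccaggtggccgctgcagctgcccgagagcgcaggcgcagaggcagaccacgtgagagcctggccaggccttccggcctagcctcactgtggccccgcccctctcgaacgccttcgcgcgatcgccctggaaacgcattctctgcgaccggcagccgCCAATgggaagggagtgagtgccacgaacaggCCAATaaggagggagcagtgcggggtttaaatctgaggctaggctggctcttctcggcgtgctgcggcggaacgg
NDC80: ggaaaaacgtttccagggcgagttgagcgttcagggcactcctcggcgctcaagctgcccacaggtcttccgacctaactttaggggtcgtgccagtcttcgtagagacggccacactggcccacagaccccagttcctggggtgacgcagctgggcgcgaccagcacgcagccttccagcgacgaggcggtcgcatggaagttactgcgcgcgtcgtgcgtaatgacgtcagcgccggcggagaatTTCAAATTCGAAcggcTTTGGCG
KIF20A showed 2 CCAAT boxes on the opposite strand, at -94 and -67 from the start, and no CHR core in these letters. CCNB1, which encodes cyclin B1, showed 2 CCAAT boxes on its own strand at -87 and -55. NDC80, the gene of the subunit that gives the microtubule-binding complex its name, held 2 CHR words side by side at -3 and 4 and an E2F core at 14. CENPU, a subunit of the inner kinetochore, held a CCAAT box on the opposite strand at -34 and an E2F core, also on that strand, at -210.

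Levels are the deposited log2 values, on which 1 unit is a factor of 2. They are compared between arrays for the same probe set and not between genes, except where marker levels are summed. The median probe set of an array stood at 3.61 to 3.66 log2 units. Genes whose mean reached the median of the named genes, 4.70 log2 units, were tested (7442 genes), and 55 of the 70 members passed this filter. The other 15 had means between 2.93 and 4.68 log2 units, and their line means differed by at most 1.49. They were 13 of the other kinesins (KIF1A, KIF2B, KIF3C, KIF5A, KIF6, KIF9, KIF12, KIF13A, KIF17, KIF19, KIF25, KIF26B and KIF27), CENPV and AURKC. A gene with low levels in most arrays can pass through 1 line alone, as KIF5C did, so counts over all 70 members without the filter stand beside those over the 55. As a check of the lines, 6 of 9 listed plasma cell markers were named and all 6 were tested. IRF4 (10.26 to 10.89 log2 units) and XBP1 (9.34 to 9.65), transcription factors of plasma cells, were high in all 6 arrays, while the surface enzyme CD38 had 9.90 and 9.99 in RPMI8226 but only 4.92 and 4.89 in KMS11 and 3.80 and 4.11 in U266. SLAMF7 reached 7.23 and 7.73 in U266 and at most 3.79 in the other lines, the plasma cell antigen gene SDC1 had 5.72 and 5.52 in KMS11 and 9.48 and 9.49 in U266, and MZB1 had 9.96 and 10.03 in RPMI8226 and 6.11 and 6.18 in U266. These markers were thus not high in every line.

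RPMI8226 carried the lowest levels of most of the mitotic genes. Both RPMI8226 arrays lay below the other 4 for 39 of the 55 tested members (70.9%), against 28.8% of all tested genes. Without the other kinesins the count was 33 of 41 (80.5%), and for the other kinesins alone it was 6 of 14 (42.9%). That split follows roles assigned with earlier results of these data known, so it is not independent support. Both U266 arrays were lowest for 11 members, against 26.4% of all genes, and both KMS11 arrays for 1, KIF13B, against 20.8%. At the upper end, both KMS11 arrays were highest for 27 members (27.3% of all genes), both U266 arrays for 13 (25.6%) and both RPMI8226 arrays for 6 (25%). With no filter on level, RPMI8226 was lowest for 43 of all 70 members (61.4%), against 19.1% of the 14884 named genes.

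The differences were tested with limma, with the treatment as a covariate and p-values adjusted by the Benjamini-Hochberg method over all 7442 genes. The F test across the 3 lines called 49 of the 55 members at an adjusted p under 0.05 (89.1%), beside a background of 82.4%, so a call by itself sets the members little apart from other genes. The direction of the pairwise contrasts differed more from the background. Of the 55 members, 44 were lower in RPMI8226 than in KMS11 and 3 higher, where 35.6% and 29.4% of all genes were called. Set against U266, RPMI8226 was lower for 35 members and higher for 9 (35.1% and 32.4% of all genes). KMS11 exceeded U266 for 19 members and was lower for 9 (34% and 29.8% of all genes). The median difference over the 55 members was -0.83 log2 units for RPMI8226 minus KMS11 (1.78-fold) and -0.61 for RPMI8226 minus U266 (1.52-fold), whereas the medians over all tested genes were -0.04 and -0.0034. All 3 contrasts share lines and are not independent of each other. Without the filter, 54 of 70 members passed the F test (77.1%, against 50.8% of all named genes), 45 were lower in RPMI8226 than in KMS11 (20.4% of all) and 34 lower than in U266 (20.3% of all).

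**Figure D1:**
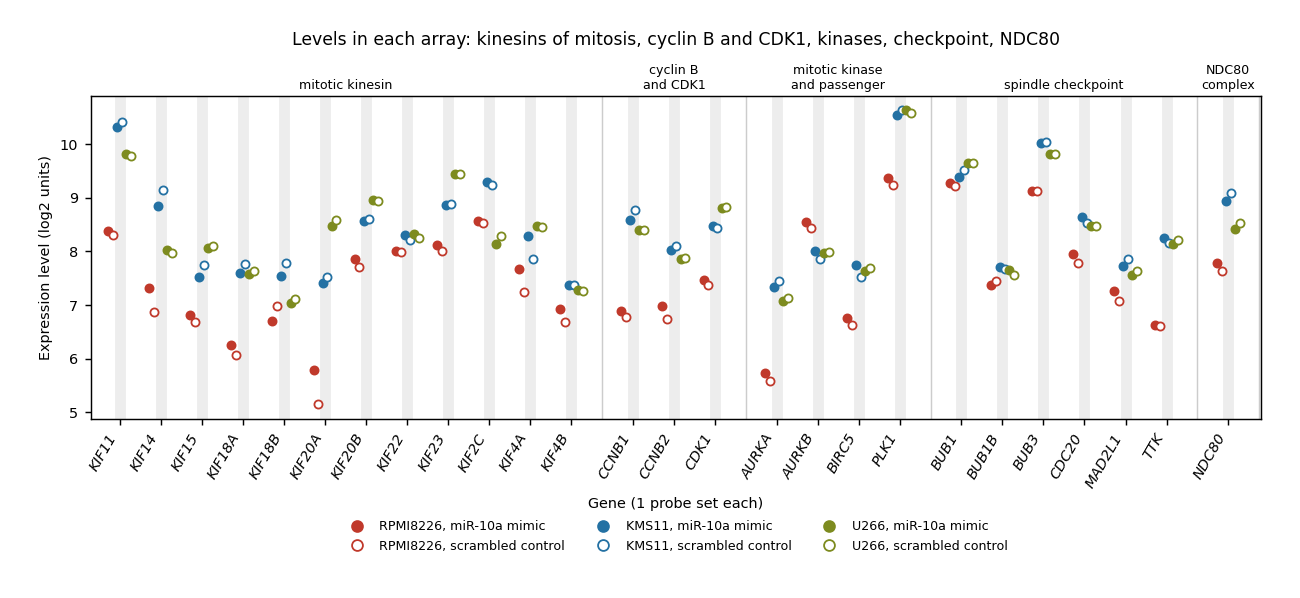
Deposited log2 level (vertical axis) of each tested kinesin of mitosis, cyclin B and CDK1 gene, mitotic kinase or passenger gene, checkpoint gene and NDC80 in every array. Filled points are miR-10a mimic, open points scrambled control, and colours mark the line. The RPMI8226 pair lies below the other 4 arrays for KIF20A (5.80 and 5.16) and for most other genes, and above them for AURKB.

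Among the kinesins of mitosis, all 12 passed the F test (82.4% of all tested genes). All 12 were lower in RPMI8226 than in KMS11 (35.6% of all genes). Against U266, 10 were lower and 1 higher (35.1% and 32.4% of all genes). Both RPMI8226 arrays were lowest for 11 of the 12 (28.8% of all genes). KIF20A, a motor of the central spindle that is needed for cytokinesis, differed most between the lines in this role. Its level was 5.80 and 5.16 log2 units in the mimic and control arrays of RPMI8226, 7.41 and 7.52 in KMS11, and 8.48 and 8.59 in U266. The lines did not overlap, and their order was RPMI8226, KMS11, U266 from low to high. The difference RPMI8226 minus U266 was -3.06 ± 0.19 log2 units (SE, 8.32-fold, limma's adjusted p = 5.13e-05). RPMI8226 minus KMS11 was -1.99 ± 0.19 (3.97-fold, adjusted p = 0.0003), and KMS11 minus U266 was -1.07 (2.09-fold, adjusted p = 0.00406).

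KIF11, the motor that pushes the spindle poles apart, had another order. It measured 8.38 and 8.30 log2 units in RPMI8226 (mimic, then control, as in every such pair of values), 10.33 and 10.42 in KMS11, and 9.82 and 9.77 in U266. KMS11 was thus highest, and RPMI8226 minus KMS11 was -2.03 ± 0.09 (4.09-fold, adjusted p = 1.59e-05). KIF14, a kinesin of cytokinesis, showed the same order, with 7.32 and 6.87 log2 units in RPMI8226, 8.84 and 9.14 in KMS11 and 8.03 and 7.97 in U266. RPMI8226 minus KMS11 was -1.90 ± 0.17 for KIF14 (3.73-fold, adjusted p = 0.000227).

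KIF23, a subunit of the centralspindlin complex that positions the cleavage furrow, followed the order of KIF20A. Its levels were 8.13 and 8.01 in RPMI8226, 8.86 and 8.89 in KMS11 and 9.44 and 9.45 in U266, and RPMI8226 minus U266 was -1.37 (2.59-fold, adjusted p = 4.53e-05). KIF18A, which damps the movements of chromosomes at the spindle's centre, separated RPMI8226 from 2 lines that did not differ beyond their spread. It stood at 6.26 and 6.06 in RPMI8226, 7.60 and 7.76 in KMS11 and 7.57 and 7.64 in U266, and KMS11 minus U266 was 0.07 (adjusted p = 0.59). KIF4A, a chromosome-bound kinesin of the spindle midzone, had 7.67 and 7.24 in RPMI8226, 8.28 and 7.86 in KMS11 and 8.48 and 8.45 in U266. KIF4B is a near-identical copy, so the probes of the pair may share transcripts and the values of KIF4A and KIF4B are uncertain.

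KIF2C, a kinesin that takes microtubules apart at kinetochores, was the exception in this role. Its levels were 8.58 and 8.53 in RPMI8226, 9.29 and 9.23 in KMS11 and 8.13 and 8.29 in U266, so U266 was lowest. RPMI8226 minus U266 was 0.34 (1.27-fold higher in RPMI8226, adjusted p = 0.0186). KIF18B, a kinesin of the astral microtubules, had 6.71 and 6.98 in RPMI8226, 7.54 and 7.79 in KMS11 and 7.04 and 7.11 in U266. KMS11 was highest, and RPMI8226 minus U266 was -0.23 (adjusted p = 0.0625). KIF22, a chromosome-arm motor, moved least between lines in this role. For KIF22, RPMI8226 minus U266 was -0.29 (1.22-fold, limma's adjusted p = 0.0194). RPMI8226 minus KMS11 was -0.26 (1.2-fold, limma's adjusted p = 0.0308).

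The 3 genes of the mitotic switch were each lower in RPMI8226 than in either other line. CCNB1 (cyclin B1) measured 6.90 and 6.78 log2 units in RPMI8226, 8.58 and 8.78 in KMS11 and 8.41 and 8.41 in U266. RPMI8226 minus KMS11 was -1.84 ± 0.10 (3.59-fold, adjusted p = 3.8e-05). KMS11 minus U266 was 0.27 (adjusted p = 0.056), which did not pass the threshold. CCNB2, the second mitotic B-type cyclin gene, had 6.98 and 6.75 in RPMI8226, 8.02 and 8.10 in KMS11 and 7.86 and 7.89 in U266. CDK1, the kinase that these cyclins switch on, had 7.46 and 7.37 in RPMI8226, 8.47 and 8.44 in KMS11 and 8.80 and 8.83 in U266. U266 was highest for CDK1, and RPMI8226 minus U266 was -1.40 (2.64-fold, adjusted p = 3.85e-05).

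The Aurora kinases went opposite ways. AURKA, the kinase of the spindle poles, measured 5.74 and 5.59 log2 units in RPMI8226, 7.33 and 7.46 in KMS11 and 7.07 and 7.14 in U266. RPMI8226 minus KMS11 was -1.73 ± 0.10 (3.32-fold, adjusted p = 4.22e-05). AURKB, the kinase of the chromosomal passenger complex that corrects faulty attachments, measured 8.55 and 8.43 in RPMI8226, 8.002 and 7.86 in KMS11 and 7.97 and 7.98 in U266. Both RPMI8226 arrays were highest, and AURKB was 1.47-fold higher in RPMI8226 than in KMS11 (0.56 ± 0.08, adjusted p = 0.0018) and 1.43-fold higher than in U266 (adjusted p = 0.00246).

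BIRC5 (survivin), which works in the same complex as AURKB, had the usual order. Its levels were 6.76 and 6.64 in RPMI8226, 7.75 and 7.53 in KMS11 and 7.64 and 7.69 in U266, and RPMI8226 minus U266 was -0.96 (1.95-fold, adjusted p = 0.000314). PLK1, the Polo-like kinase that acts from mitotic entry to cytokinesis, stood at 9.37 and 9.24 in RPMI8226, 10.54 and 10.63 in KMS11 and 10.63 and 10.58 in U266. KMS11 and U266 overlapped for PLK1, and RPMI8226 minus U266 was -1.30 (2.46-fold, adjusted p = 7e-05).

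All 6 checkpoint genes had both RPMI8226 arrays lowest (28.8% of all tested genes). Of the 6, 5 passed the F test (83.3%, near the 82.4% of all tested genes). TTK, the kinase that starts checkpoint signalling at unattached kinetochores, showed the widest range. It measured 6.63 and 6.61 log2 units in RPMI8226, 8.26 and 8.16 in KMS11 and 8.15 and 8.21 in U266, and RPMI8226 minus KMS11 was -1.59 ± 0.08 (3.01-fold, adjusted p = 3.43e-05). BUB3, which brings BUB1 and its relatives to kinetochores, had 9.13 and 9.12 in RPMI8226, 10.02 and 10.04 in KMS11 and 9.82 and 9.81 in U266. CDC20, the activator of the anaphase-promoting complex on which the checkpoint acts, had 7.95 and 7.79 in RPMI8226, 8.65 and 8.54 in KMS11 and 8.47 and 8.47 in U266. In each of these genes RPMI8226 was apart from the other lines, which lay close together. The kinase gene BUB1 was closer between lines, with 9.28 and 9.22 in RPMI8226, 9.39 and 9.52 in KMS11 and 9.65 and 9.65 in U266. Its RPMI8226 minus KMS11 difference was -0.20 (adjusted p = 0.0843). BUB1B, the gene of the checkpoint effector BubR1, did not pass the F test (adjusted p = 0.0537).

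NDC80 measured 7.79 and 7.63 log2 units in RPMI8226, 8.93 and 9.09 in KMS11 and 8.43 and 8.54 in U266. The 3 lines were apart, with KMS11 highest, and RPMI8226 minus KMS11 was -1.30 ± 0.10 (2.47-fold, adjusted p = 0.000139).

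**Figure D2:**
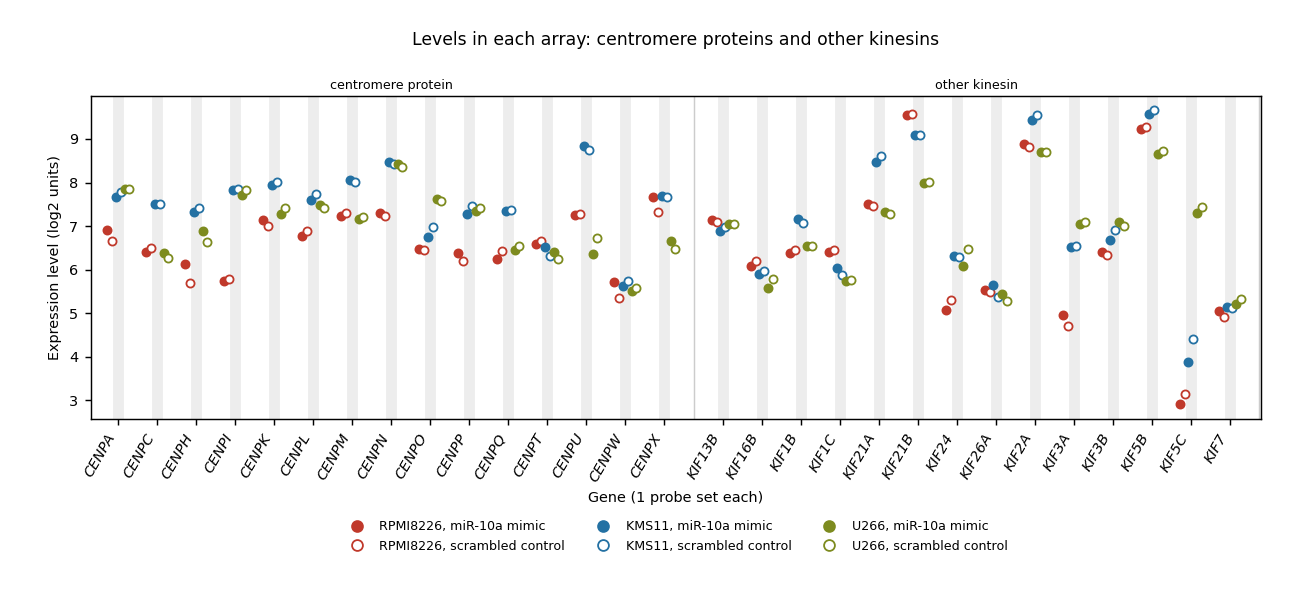
Deposited log2 level (vertical axis) of each tested centromere protein gene and other kinesin gene in every array, with filled points for miR-10a mimic, open points for scrambled control and a colour for each line. CENPU is highest in KMS11 (8.83 and 8.75) and lowest in U266 (6.36 and 6.73), and KIF5C lies above 7 log2 units in U266 alone.

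The centromere proteins were less uniform. Of the 15 tested, 13 passed the F test (86.7%, near the 82.4% of all tested genes). Against KMS11, 12 were lower in RPMI8226 and 0 higher (35.6% and 29.4% of all genes). Against U266, 8 were lower and 3 higher (35.1% and 32.4%). Both RPMI8226 arrays were lowest for 9 of the 15 (28.8% of all genes). Both KMS11 arrays were highest for 10 (27.3%). CENPI, an inner kinetochore subunit that works with CENPH and CENPK, measured 5.75 and 5.80 log2 units in RPMI8226, 7.82 and 7.84 in KMS11 and 7.71 and 7.82 in U266. RPMI8226 minus KMS11 was -2.06 ± 0.08 (4.17-fold, adjusted p = 1.13e-05), while KMS11 minus U266 was 0.07 (adjusted p = 0.49). CENPH measured 6.14 and 5.70 in RPMI8226, 7.32 and 7.41 in KMS11 and 6.89 and 6.65 in U266, and KMS11 was highest. CENPN, which binds the centromeric nucleosome, was split like CENPI, with KMS11 and U266 close together. Its levels were 7.31 and 7.24 in RPMI8226, 8.46 and 8.42 in KMS11 and 8.42 and 8.36 in U266, with RPMI8226 minus U266 at -1.12 (2.17-fold, adjusted p = 7.24e-05). CENPA, the histone H3 variant that defines the centromere, had 6.90 and 6.66 in RPMI8226, 7.67 and 7.79 in KMS11 and 7.84 and 7.86 in U266, and RPMI8226 minus U266 was -1.07 (2.1-fold, adjusted p = 0.000334).

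CENPU, a subunit that docks PLK1 at the inner kinetochore, differed most among the centromere proteins. It measured 7.26 and 7.28 in RPMI8226, 8.83 and 8.75 in KMS11 and 6.36 and 6.73 in U266, so RPMI8226 lay between the other lines. KMS11 minus U266 was 2.24 log2 units (4.73-fold, adjusted p = 4.38e-05), and RPMI8226 minus U266 was 0.72 (1.65-fold, adjusted p = 0.00303). CENPX, a histone-fold protein of the kinetochore and of DNA repair, was also lowest in U266. Its levels were 7.67 and 7.33 in RPMI8226, 7.69 and 7.68 in KMS11 and 6.67 and 6.47 in U266. RPMI8226 minus U266 was 0.93 (1.9-fold, adjusted p = 0.000445), and RPMI8226 minus KMS11 was -0.19 (adjusted p = 0.156). CENPT and CENPW, histone-fold partners that link the centromere to the NDC80 complex, did not pass the F test (adjusted p = 0.0752 for CENPT and 0.567 for CENPW).

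The other kinesins were mixed. Of the 14 tested, 11 passed the F test (78.6%, against 82.4% of all tested genes). Both RPMI8226 arrays were lowest for 6 and both U266 arrays for 6 (28.8% and 26.4% of all genes). RPMI8226 was lower than KMS11 for 8 and higher for 2 (35.6% and 29.4% of all genes), with a median difference of -0.40 log2 units. Set against U266, RPMI8226 was lower for 5 and higher for 4 (35.1% and 32.4%), with a median of 0.11. KIF5C, a kinesin-1 heavy chain known mainly from neurons, stood out in U266. It was at 2.92 and 3.14 log2 units in RPMI8226, 3.88 and 4.40 in KMS11 and 7.31 and 7.43 in U266. U266 stood above the other lines, whose values lay below the filter level of 4.70. The table holds no detection calls, so RPMI8226 and KMS11 are not known to be above background for KIF5C, and no fold is given.

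KIF3A, a motor subunit of transport within cilia, was low in RPMI8226 as well. Its levels were 4.95 and 4.70 in RPMI8226, 6.53 and 6.54 in KMS11 and 7.04 and 7.10 in U266. RPMI8226 minus U266 was -2.24 (4.73-fold, limma's adjusted p = 1.62e-05). The RPMI8226 levels of KIF3A lay close to the filter level of 4.70, and without detection calls that fold is uncertain. KIF21B, a motor that also restrains microtubule growth, ran the other way, with 9.54 and 9.58 in RPMI8226, 9.10 and 9.10 in KMS11 and 7.98 and 8.01 in U266. RPMI8226 minus U266 was 1.56 for KIF21B (2.95-fold, adjusted p = 2.23e-05). KIF5B, the widely expressed kinesin-1 heavy chain, had 9.23 and 9.28 in RPMI8226, 9.57 and 9.66 in KMS11 and 8.66 and 8.73 in U266. U266 was lowest for KIF5B, and RPMI8226 minus U266 was 0.56 (1.47-fold, adjusted p = 0.00125). KIF2A, which takes microtubules apart like KIF2C, had 8.88 and 8.83 in RPMI8226, 9.44 and 9.55 in KMS11 and 8.69 and 8.70 in U266. RPMI8226 minus KMS11 was -0.64 for KIF2A (1.56-fold, adjusted p = 0.00103), and RPMI8226 minus U266 was 0.16 (adjusted p = 0.147). KIF24, a kinesin that keeps cilia from forming in dividing cells, had 5.08 and 5.30 in RPMI8226, 6.30 and 6.30 in KMS11 and 6.08 and 6.48 in U266. It was lower in RPMI8226 than in KMS11 by a difference of -1.11 (2.16-fold, adjusted p = 0.00035). KIF1C joined AURKB and KIF21B as a member higher in RPMI8226 than in KMS11, at 1.38-fold (adjusted p = 0.00511). KIF7, KIF13B and KIF26A did not pass the F test. Of the members with several probe sets, KIF1B had a further probe set at 3.54 to 4.15 log2 units, below the filter level.

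**Figure D3:**
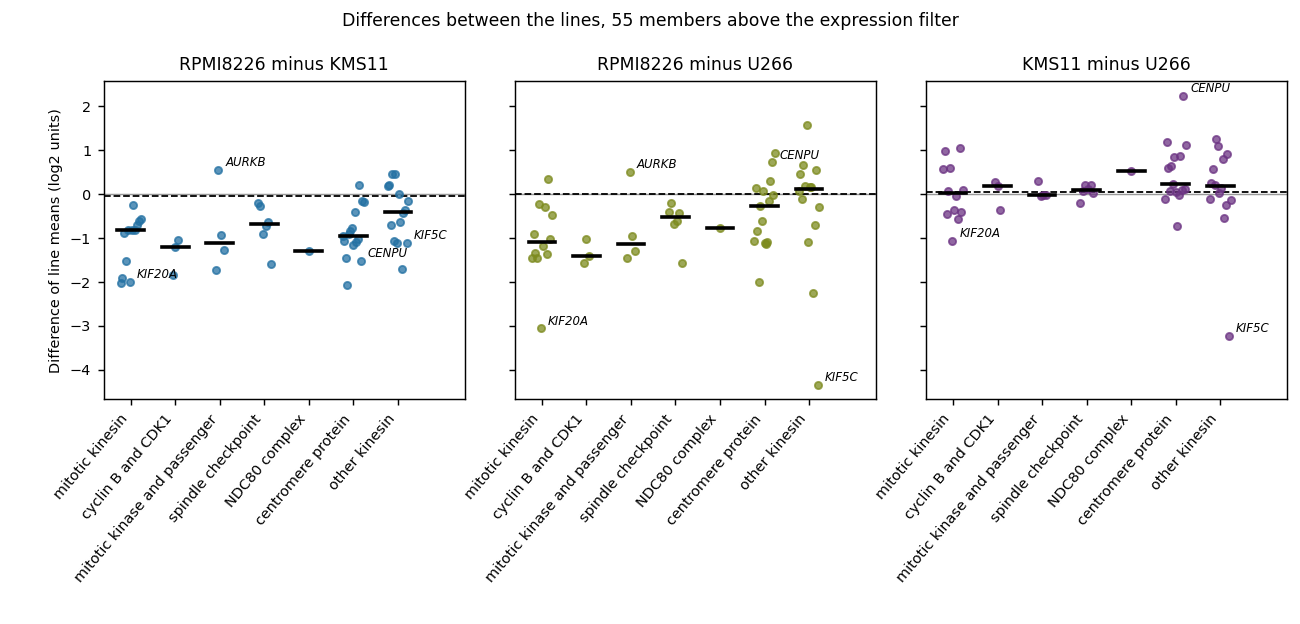
Difference of line means in log2 units (vertical axis) for the 55 tested members by role, as RPMI8226 minus KMS11, RPMI8226 minus U266 and KMS11 minus U266. Points are genes, short bars the median of a role and the dashed line the median of all 7442 tested genes. The bars lie below the dashed line in every role for RPMI8226 minus KMS11, and the other kinesins lie around it for RPMI8226 minus U266 (median 0.11).

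The wider mitotic programme was read from lists of other genes. Of all tested genes, 28.8% had both RPMI8226 arrays lowest. In RPMI8226, 35.6% were called lower and 29.4% higher than in KMS11, and 35.1% and 32.4% than in U266. Both RPMI8226 arrays were lowest for 13 of 15 tested spindle and cytokinesis genes (12 lower and 0 higher than in KMS11, and the same counts against U266) and for 11 of 18 other kinetochore genes (10 lower and 2 higher than in KMS11, 11 lower and 2 higher than in U266). The counts were 10 of 13 for regulators of mitotic entry (10 lower and 1 higher than in KMS11, 7 lower and 3 higher than in U266). They were 8 of 12 for cohesin and condensin genes (8 and 0, 7 and 1). The anaphase-promoting complex and securin genes were mixed, with 9 of 18 lowest in RPMI8226 (9 and 6, 9 and 5). HJURP, the chaperone that loads CENPA, stood at 7.36 and 7.41 log2 units in RPMI8226, 9.39 and 9.39 in KMS11 and 8.96 and 8.91 in U266, and passed the F test (adjusted p = 1.46e-05).

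Of 6 proliferation markers, 4 had both RPMI8226 arrays lowest and 2 had them highest (28.8% and 25% of all tested genes). MKI67, the gene of the Ki-67 antigen, had 8.29 and 8.40 log2 units in RPMI8226, 10.30 and 10.43 in KMS11 and 10.55 and 10.59 in U266, whereas both RPMI8226 arrays were highest for the replication genes PCNA (10.16 and 10.18, against 9.63 and 9.63 in KMS11 and 9.91 and 9.78 in U266) and MCM2, which were named after their values were seen. Markers of other blood and stromal cells were named for 6 of 14 genes, of which 3 were tested. Their summed unlogged level was 7347 and 7453 in RPMI8226, 819 and 808 in KMS11 and 861 and 879 in U266. FN1 (fibronectin) made up most of the RPMI8226 sum, which was 161 and 142 without it, against 753 and 745 in KMS11 and 833 and 853 in U266. VIM, also listed, stood at 9.42 and 9.41 log2 units in KMS11, 9.60 and 9.62 in U266, and 6.20 and 6.13 in RPMI8226. PAX5, CD14 and CSF1R, which were not tested, reached at most 4.24 log2 units in any array. The sums thus rest mainly on FN1 in RPMI8226 and on VIM in KMS11 and U266, and do not measure other cells. The summed level of the 6 plasma cell markers was 4264 and 4350 in RPMI8226, 3069 and 2950 in KMS11 and 2923 and 3120 in U266. The part of proliferation or of other cells in the line differences was not tested.

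With the mimic, no member was called changed. The comparison asks which of these transcripts respond to an excess of miR-10a, with the cell line as a block. In limma, 0 of the 55 members had an adjusted p under 0.05, beside a background of 0% (0 of 7442 genes, smallest adjusted p 0.889), and 0 of 70 without the filter (background 0%). At an unadjusted p under 0.05, limma had 3 of 55 members and 403 of 7442 genes. The plain paired test had 2 members and 402 genes, with 0 members called. The shares of members were near or below those of all genes. The median change of the members was 0.0024 log2 units, beside -0.0029 over all tested genes, and 28 members were higher and 27 lower on average. The 95% interval of the change lay within 1.5-fold in either direction for 55 of 55 members (7265 of all 7442 genes), with a median half-width of 0.19 log2 units. Transcripts of miR-10a itself are not measured by a probe set named here, so the arrays give no check of its delivery.

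Among the members, 6 were higher with the mimic in all 3 lines and 6 lower (12.7% and 13.8% of all tested genes). The 6 higher ones were KIF4A, KIF4B, KIF22, KIF26A, CENPN and CENPX, and the 6 lower ones KIF18B, KIF5B, KIF5C, KIF16B, CENPI and CENPQ. KIF4A had the largest mean difference among the mitotic kinesins. RPMI8226 showed a mimic minus control value of 0.44 and KMS11 of 0.42, U266 of 0.03, and the mean was 0.30 ± 0.23 log2 units (SD, n = 3 lines; 95% interval 0.05 to 0.54; limma's adjusted p = 0.889). KIF18B had -0.27 in RPMI8226, then -0.25 in KMS11 and -0.07 in U266, and its mean was -0.20 ± 0.11 (limma's adjusted p = 0.901). KIF5C had -0.22, -0.52 and -0.12 in the same lines, a mean of -0.29 ± 0.21 (limma's adjusted p = 0.889), at levels below the filter in RPMI8226 and KMS11. These were the 3 members with an unadjusted p under 0.05, and none of them passed the adjustment. CENPH and CENPX had the largest mean differences among the centromere proteins, 0.20 ± 0.27 and 0.18 ± 0.16 (limma's adjusted p = 0.917 for CENPH and 0.911 for CENPX).

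**Figure D4:**
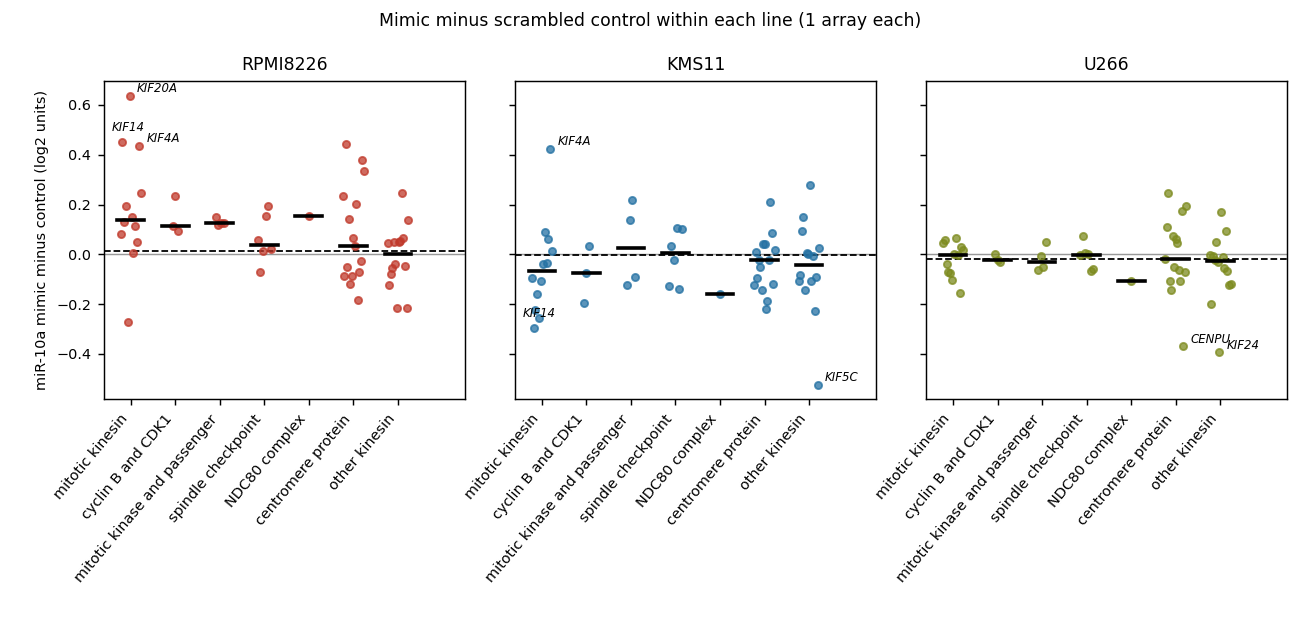
Mimic minus control in log2 units (vertical axis) for the 55 tested members by role in each line, 1 array of each treatment per line. Points are genes, short bars the median of a role and the dashed line the median of all tested genes. In RPMI8226 the median of the mitotic kinesins is 0.14 and KIF20A lies at 0.64, whereas the medians in KMS11 and U266 are -0.07 and -0.0014.

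Within single lines there is 1 array of each treatment and no replicate check. Genes read on 1 pair of arrays are not replicates of the mimic, so the counts of members describe that pair alone. In RPMI8226, 39 of 55 members were higher with the mimic and 16 lower (all genes 4002 and 3434), with a median of 0.06 log2 units against 0.01 over all genes. Without the other kinesins the counts were 32 and 9 and the median 0.12. The 12 mitotic kinesins stood at 11 higher and 1 lower, with a median of 0.14. In KMS11, 22 members were higher and 33 lower, with a median of -0.04 against -0.0011 over all genes (3694 higher and 3745 lower). In U266, 19 were higher and 36 lower, with a median of -0.02 against -0.02 over all genes (3287 higher and 4145 lower).

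Differences of at least 1.2-fold were few. In RPMI8226, 6 members were higher by that much (7.22% of all genes) and 1 lower (6.05%), KIF18B. The 6 were KIF20A (0.64 log2 units), KIF14 (0.45), CENPH (0.44), KIF4A (0.44), CENPW (0.38) and CENPX (0.33), named after their values were seen. In KMS11, KIF4A and KIF26A were higher (6.44% of all genes) and KIF14 and KIF5C lower (5.94%). In U266, 0 were higher (5.91%) and 2 lower (7.09%), KIF24 at -0.39 and CENPU at -0.37.

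Of the tested members, KIF20A had the widest difference within a line. With the mimic it was 0.64 log2 units higher in RPMI8226, while mimic minus control was -0.11 in KMS11 and -0.10 in U266, and the mean was 0.14 ± 0.43 (SD, n = 3 lines; limma's adjusted p = 0.926). The mean without RPMI8226 was -0.11, so its sign rests on that pair. The RPMI8226 mimic array, at 5.80, remained below both arrays of every other line. The KIF14 values were 0.45 for RPMI8226, -0.29 for KMS11 and 0.06 for U266.

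Whether the mimic effect of a line differed from that of the other lines was tested with a term for that line, which leaves 1 residual degree of freedom. In limma, 0 members were called for RPMI8226, 0 for KMS11 and 0 for U266, beside backgrounds of 0%, 0% and 0%. At an unadjusted p under 0.05 there were 3 of 55 members and 480 of 7442 genes for RPMI8226. For KMS11 there were 2 members and 298 genes, and for U266 1 member and 471 genes. In no line did the share of members exceed that of all genes. The 3 in RPMI8226 were KIF20A (0.74 log2 units above the other lines, unadjusted p = 0.00397 in limma), CENPW (0.47, unadjusted p = 0.0221 in limma) and KIF14 (0.57, unadjusted p = 0.041 in limma), whose adjusted p-values were 0.748, 0.748 and 0.757. With a variance trend in limma, KIF14 was called for KMS11 (adjusted p = 0.0361), which the fit without the trend did not do (adjusted p = 1).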

How the data were processed

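The deposited values are log2 levels of 53617 probe sets in 6 arrays. Affymetrix Expression Console 1.3.0 is named per the submitters' processing notes. How background was corrected, how arrays were normalized or centred and which genome build was used is not given in the sources used here. The platform annotation gave 1 symbol for 16098 probe sets (14884 genes), and 37519 stayed unnamed here. Each gene was read from its probe set of highest mean (the members had 73 in all, with several for KIF1B and KIF27).

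Genes at or above the median mean level were tested in limma 3.58.1 (R 4.3.3; lmFit and eBayes without trend, two-sided, Benjamini-Hochberg over 7442 genes, threshold 0.05). The mimic effect had cell line as a block, since the same line pairs the arrays (deviations of a pair correlated at 0.97, 0.967 and 0.97 across genes). Line differences had treatment as a covariate. The method was tested on simulated data.

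The members, their roles and the gene lists were chosen with earlier results of these data known. Genes with values in every array are KIF20A and, per role, the highest in mean level, mimic change and line range, along with further members named for a count or an exception. Alternatives covered the filter, normalization, probe-set choice, variance trend, block, a plain paired test and arrays left out. Promoter and miRNA sequences are from RefSeq (GRCh38.p14).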

Additional observations from a re-analysis of the deposited data

How the results depend on the processing

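Counts of members lower in RPMI8226 kept their side under all alternatives run: 42 to 45 against KMS11 and 33 to 36 against U266. With 1 array left out they were 39 to 44 and 30 to 34. The number of members tested differs with the filter. Without it, 45 of 70 were lower than in KMS11 (20.4% of all named genes) and 34 lower than in U266 (20.3%). In the upper 25% of genes by level, where fewer members are tested, the counts were 42 and 33. Shares of all genes are not given for the other alternatives, so their member counts are not set against a background. Without the filter, 5 of 70 members were higher in RPMI8226 than in KMS11 in place of 3 of 55. Both KMS11 arrays were lowest for 2 of 70 members without the filter and for 0 members after quantile normalization, in place of 1 of 55. Shares of all genes are not given for these counts either, so no change in share is read from them. In the upper 25% of genes by level, where fewer genes are tested, the calls over all genes were 3474 across the lines, 2933 for RPMI8226 minus KMS11, 2899 for RPMI8226 minus U266 and 2852 for KMS11 minus U266. A line's own mimic effect, called for 0 genes, was called for 15 genes in KMS11 and 28 in U266 with a variance trend and for 10 in U266 in the upper 25% of genes. Of these, 1 member was called, KIF14 in KMS11; the cause was not tested. The mimic was called for 0 members under every alternative, including the fit without the replicate block (0) and the plain paired test (0). With a pair left out, which was run for 14 named members, the mean mimic change changed sign for KIF20A (-0.106 to 0.266), CCNB2 (-0.0496 to 0.105), NDC80 (-0.132 to 0.0236) and BUB1 (-0.0633 to 0.028), none of them called. The table holds no detection calls, so signal over background cannot be read for low members such as KIF5C.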

Other observations

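Genes of factors that control mitotic transcription, a list with repressors such as E2F7 beside activators, were mixed between the lines. The counts below pool both kinds. Of 15 tested, 14 passed limma's F test across the lines (93.3%, against 82.4% of all tested genes). Both RPMI8226 arrays were lowest for 6 (40%, against 28.8%). RPMI8226 was lower than KMS11 for 10 and higher for 2 (35.6% and 29.4% of all genes). It was lower than U266 for 6 and higher for 2 (35.1% and 32.4%). MYBL2, the B-Myb subunit of the complex that binds CHR elements, stood at 8.33 and 8.22 log2 units in RPMI8226 (mimic, then control), 10.72 and 10.68 in KMS11 and 10.28 and 10.25 in U266 (limma's adjusted p = 6.69e-06). LIN54, the subunit of that complex that reads the CHR, was highest in KMS11 as well, with 6.67 and 6.80 in RPMI8226, 8.25 and 8.30 in KMS11 and 6.66 and 6.88 in U266. E2F1 was also highest in KMS11, with 7.34 and 7.09 in RPMI8226, 8.23 and 8.03 in KMS11 and 7.21 and 7.25 in U266. E2F7, a repressor among the E2F factors, was highest in U266, with 6.42 and 6.62 in RPMI8226, 6.83 and 6.86 in KMS11 and 7.36 and 7.54 in U266. With the mimic, none of the 15 was called in limma, and the mean change was 0.14 ± 0.16 for E2F1 and -0.14 ± 0.09 for E2F7 (SD, n = 3 lines).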
